A study of Mus musculus with 16 samples.

Results

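Lymphocytes and myeloid cells receive interleukin and interferon signals through paired transmembrane chains, and the 10 receptor genes described here encode such chains: Il7r, Il2rg, Il4ra, Ifngr1, Ifngr2, Ifnar1, Ifnar2, Il10ra, Il10rb and Il17ra. They were taken by gene symbol, under a rule that uses no measured value, and all 10 of the 16612 genes listed in either expression table were found in both tables. None was lost to the filter on low values, since the mean of each exceeded a normalized count of 10 in both tables.

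BCR-ABL+, Arf-/- B-ALL cells that express mCherry (a B-cell acute lymphoblastic leukemia, 500000 cells per mouse, by tail vein) were transplanted into WT or IL6KO C57BL/6J mice, given as 6 to 8 weeks old. Marrow of untreated mice was taken 8 days later, red cells were lysed, and live mCherry+ cells (tumor) and mCherry- cells (stroma) were sorted for RNA-seq of ribosome-depleted RNA. There were 4 libraries each of WT tumor, IL-6 KO tumor, WT stroma and IL-6 KO stroma. The leukemia carried the same alleles in both hosts, so only the host differed in its Il6 gene, and Il6 itself was listed in neither table and could not be used to check the genotypes. Stroma is the labels' name for every marrow cell without mCherry, the blood cells of the marrow included. The labels do not say that the libraries of a group came from separate mice, so the p-values below measure the spread between these libraries.

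Cytokine receptors of this kind work as pairs. The IL-7 receptor chain (Il7r) and the IL-4 receptor chain (Il4ra) each join the common gamma chain (Il2rg), Ifngr1 joins Ifngr2 for IFN-gamma, Ifnar1 joins Ifnar2 for the type I interferons, and Il10ra joins Il10rb, which also serves IL-22 and the type III interferons. Ligand binding brings Jak kinases together on these pairs and activates STAT factors, whereas Il17ra belongs to another family and signals through the adaptor Traf3ip2 (Act1). In B-lineage cells IL-7 receptor signaling drives the growth of progenitors, and in marrow myeloid cells the interferon, IL-4, IL-10 and IL-17 receptors are widely used.

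The tumor libraries were more even than the stroma libraries, though they too differed between genotypes. Genes listed at 0 numbered 112 to 218 of 15080 per tumor library and 307 to 1570 of 13344 per stroma library, with the most in IL-6 KO stroma 1 (1570), IL-6 KO stroma 3 (1227) and WT stroma 1 (1121). The RNA Rn7s1 made up 19.2% to 50.1% of all normalized counts in the WT stroma libraries and 71.5% to 79.0% in 3 of the IL-6 KO ones. The exception was IL-6 KO stroma 4, with 10.9% of Rn7s1 and 61.5% of CT010467.1. In tumor Rn7s1 made up 3.404% to 4.11% in WT and 5.399% to 6.24% in IL-6 KO libraries. The summed normalized counts were 3.88e+07 to 4.46e+07 in WT tumor and 4.73e+07 to 5.56e+07 in IL-6 KO tumor. Neither the Rn7s1 share nor the sum overlapped between genotypes in tumor, and the cause was not tested. The median standard error of a log2 fold change was 0.14 in tumor and 0.61 in stroma. B-lineage marker genes summed to normalized counts of 135282 to 153984 in tumor libraries and of 557 to 1584 in stroma libraries, each on its own table's scale. In stroma, Cd3d, Cd3e, Cd3g, Trac and Cd8a of T cells and Cxcl12, Lepr, Pdgfra, Cdh5 and Emcn of mesenchymal and endothelial cells were not among the listed genes.

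A group of 4 of the receptor genes sits together in the genome. On GRCm38, Ifnar2 (chromosome 16, 91372783 to 91405589), Il10rb (91406164 to 91425834), Ifnar1 (91485238 to 91507441) and Ifngr2 (91547072 to 91565623) lie on the plus strand within 192.8 kb that holds 5 protein-coding genes. The fifth is Gm21970, a read-through gene that shares 315 nucleotides with Ifnar2 and 572 with Il10rb at 97% identity or more, so reads may be split among them. Gm21970 was listed in stroma alone, at 49.98 in WT stroma 2, 18.1 in WT stroma 4 and 0 in the other 6 libraries, and the stroma values of Ifnar2 and Il10rb are uncertain to that extent. The other receptors are Il7r (chromosome 15, 9505788 to 9530176, minus strand), Il4ra (chromosome 7, 125552120 to 125579474, plus strand), Ifngr1 (chromosome 10, 19591949 to 19610229, plus strand), Il10ra (chromosome 9, 45253837 to 45269149, minus strand), Il17ra (chromosome 6, 120463247 to 120487559, plus strand) and Il2rg (chromosome X, 101264378 to 101268255, minus strand). Gm20489 overlaps Il2rg on the same strand and shares 730 nucleotides with it, and an antisense gene, Gm44876, overlaps Il4ra. Since Gm20489 was listed in neither table, reads that may have gone to it cannot be seen, and the values of Il2rg are uncertain to that extent.

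The 250 bases upstream of the RefSeq start (GRCm38.p6) were held for 7 of the 10 receptors, the others being Il10ra, Il10rb and Il17ra. They were searched for TTCNNNGAA, the palindrome that most STAT dimers bind, TTCNNNNGAA, the wider spacing preferred by STAT6, GAAANNGAAA, the core of the interferon-stimulated response element, and GAGGAA, a core bound by the Ets factor PU.1, on both strands. The first was found in Il7r and Ifnar2 (7.02% of 32851 promoter windows of this length), the second in Ifngr2 (5.85%) and the last in Ifnar1 on the other strand (23.3%), and the response element core in none of the 7 (2.98%). The windows printed here are those that hold a STAT-type palindrome, in capitals, and that of Il2rg, the receptor whose stroma values did not overlap between genotypes, in which none was found. The Il7r window is chr15:9529877-9530126 and that of Il2rg chrX:101268256-101268505, both on the minus strand, and those of Ifnar2 and Ifngr2 are chr16:91372533-91372782 and chr16:91546809-91547058 on the plus strand.
Il7r: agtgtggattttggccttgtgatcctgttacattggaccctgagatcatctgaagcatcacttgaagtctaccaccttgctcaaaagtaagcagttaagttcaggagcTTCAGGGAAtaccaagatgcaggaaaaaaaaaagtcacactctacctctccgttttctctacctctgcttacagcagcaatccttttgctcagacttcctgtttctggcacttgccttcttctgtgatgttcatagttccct
Ifnar2: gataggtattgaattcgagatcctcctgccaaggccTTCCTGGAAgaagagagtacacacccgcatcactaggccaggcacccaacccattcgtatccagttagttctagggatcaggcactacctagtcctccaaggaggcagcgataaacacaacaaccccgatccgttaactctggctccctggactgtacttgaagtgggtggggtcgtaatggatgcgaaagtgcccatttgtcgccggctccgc
Ifngr2: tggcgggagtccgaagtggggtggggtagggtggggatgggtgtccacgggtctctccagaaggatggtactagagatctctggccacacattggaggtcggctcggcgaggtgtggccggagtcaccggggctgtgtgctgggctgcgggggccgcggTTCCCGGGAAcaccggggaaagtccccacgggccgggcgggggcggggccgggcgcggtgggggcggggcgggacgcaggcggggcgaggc
Il2rg: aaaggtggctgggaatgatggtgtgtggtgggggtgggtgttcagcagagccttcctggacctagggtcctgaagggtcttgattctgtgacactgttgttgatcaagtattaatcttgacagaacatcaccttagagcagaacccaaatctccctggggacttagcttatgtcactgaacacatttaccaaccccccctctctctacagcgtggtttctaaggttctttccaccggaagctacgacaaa
The match begins 142 bases before the start in Il7r, 214 in Ifnar2 and 91 in Ifngr2. A match is a run of letters in this window and no evidence of binding.

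In WT tumor, both type I interferon receptor chains and the IL-7 receptor chain had the highest levels of the set by the median transcript length. Per kilobase of the median protein-coding transcript, Ifnar1 stood at 1787 ± 72.1 normalized counts (SD, n = 4), Il7r at 1735 ± 160 and Ifnar2 at 1546 ± 126, and the ranges of neighbours in this order overlapped. Il2rg (1074), Il4ra (1017) and Il17ra (955) followed, then Ifngr2 (748) and Ifngr1 (744), and Il10ra (401) and Il10rb (299) came last, each below the range of the one before. Il7r was at the 85.0th percentile of the genes tested in WT tumor and at the 81.0th in IL-6 KO tumor. The order depends on the transcript length used. With the longest transcript Il7r led at 1729, followed by Ifnar1 at 1267 and Il17ra at 955, while Il2rg ranked 6 of 10 at 729, Ifnar2 ranked 7 at 557 and Il4ra was the lowest at 94.99. With merged exons Il7r, Il17ra and Ifnar1 led in that order, and Il4ra was again the lowest.

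In WT stroma the order was another one, with Il7r next to last by the median transcript length. Ifnar2 (391 normalized counts per kilobase), Il4ra (335), Il17ra (130) and Ifnar1 (113) led with overlapping ranges, and Il7r was at 14.8, the 21.6th percentile of the stroma genes tested. The place of Il4ra rests on a median transcript of 0.491 kb, since it was at 31.3 and ranked 6 of 10 with the longest transcript and at 27.4 and ranked 5 with merged exons, whereas Ifnar2, Il17ra and Ifnar1 were the first 3 under both. The common gamma chain Il2rg was at 45.5 per kilobase in WT stroma and at 8.54 in IL-6 KO stroma, where it was the lowest of the 10. The tables were normalized separately, so a level in tumor was not tested against one in stroma.

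**Figure D1:**
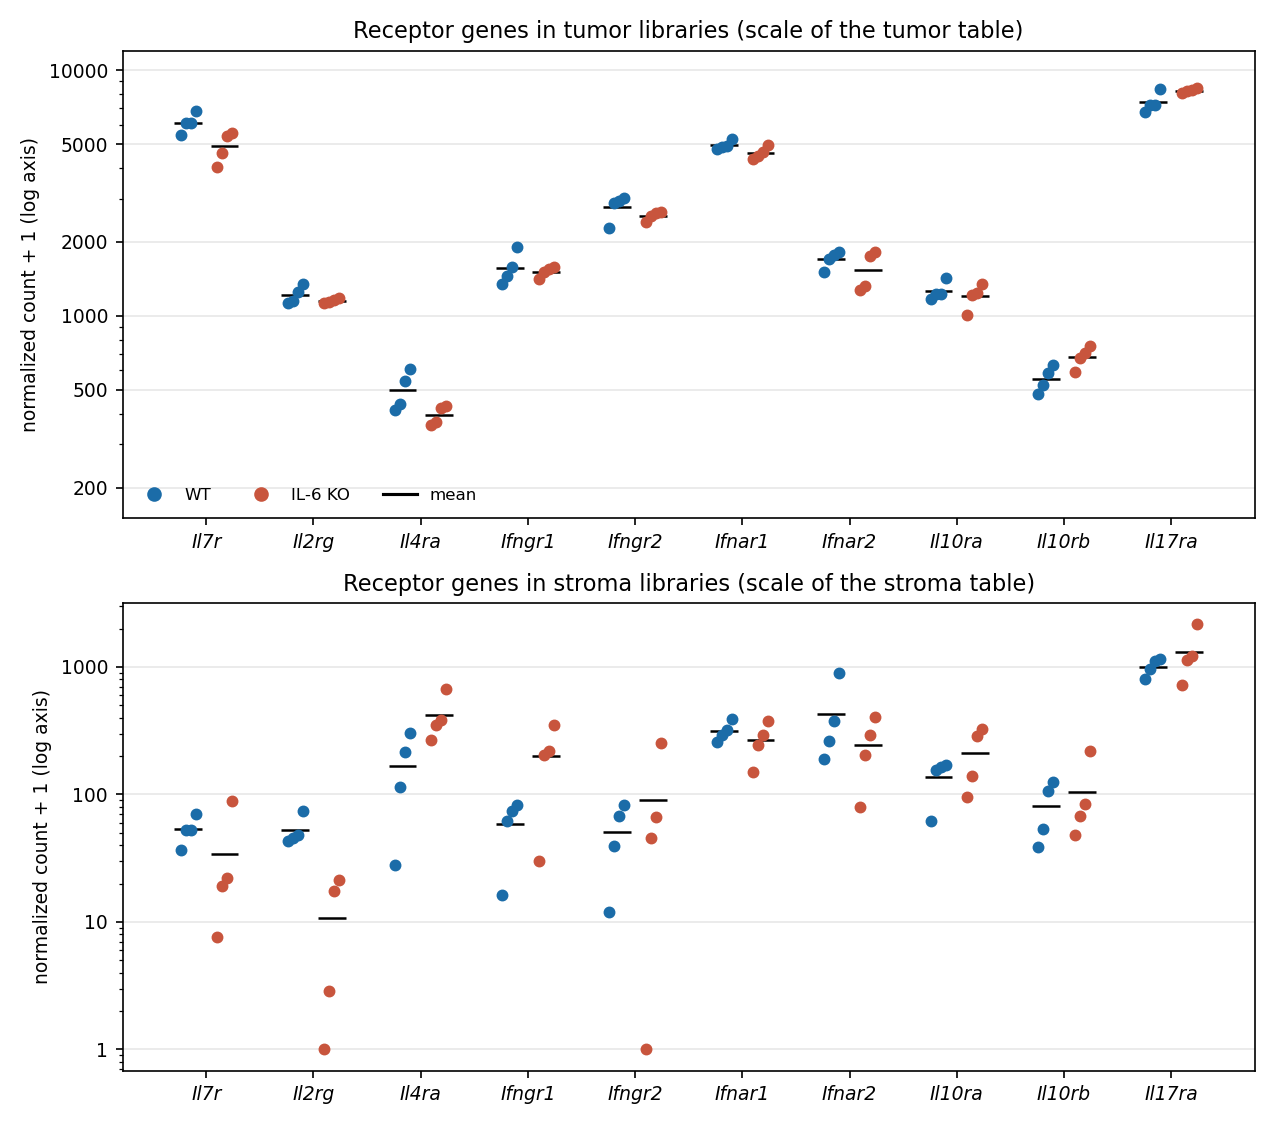
Normalized count + 1 (log axis) of the 10 receptors in each library, tumor above and stroma below, each panel on the scale of its own table. Points are libraries (4 per group, WT blue, IL-6 KO red, ordered by value within a group) and black lines are means. In tumor the genotypes overlap for every receptor, and in stroma Il2rg separates them, with WT from 41.8 to 73.1 and IL-6 KO from 0 to 20.4.

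Whether host IL-6 alters the receptors on leukemic cells was asked by comparing IL-6 KO with WT tumor. No receptor passed the test (limma on log2(normalized count + 1), adjusted p under 0.05 over all genes tested), against 19.8% of the 14493 genes tested. At an unadjusted p under 0.05 there were 4 of 10, against 35.1% of all genes. Of the 10 receptors 8 had lower and 2 had higher means on the log2 scale in IL-6 KO, with a median log2 fold change of -0.09 beside -0.0059 over all genes, and in none were the genotypes without overlap, against 25.6% of all genes.

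Il7r, the receptor chain for the main growth factor of B-cell progenitors, had the smallest adjusted p of the set in tumor. In the order of replicates 1 to 4, as in every such row of values here, its normalized counts were 5457, 6113, 6839 and 6078 in WT and 4591, 4053, 5525 and 5405 in IL-6 KO. Of the IL-6 KO libraries, 3 lay below every WT library and IL-6 KO tumor 3 lay just above the lowest of them. The log2 fold change was -0.33 (95% interval -0.57 to -0.085, limma adjusted p = 0.0604), and its partner Il2rg stood at 1217 ± 99.4 (SD, n = 4) in WT and 1151 ± 25.6 in IL-6 KO tumor (log2 fold change -0.08, limma adjusted p = 0.529). Il7r passed the threshold under some alternatives, with limma adjusted p of 0.0353 after quantile normalization and 0.0473 without IL-6 KO tumor 3.

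Il4ra, the chain that binds IL-4 and IL-13, had values in tumor that leaned the same way. Its normalized counts were 437, 413, 541 and 606 in WT and 429, 420, 358 and 369 in IL-6 KO. WT tumor 2 was within the IL-6 KO range and the other 3 WT libraries lay above it, with a log2 fold change of -0.33 (95% interval -0.64 to -0.015, limma adjusted p = 0.126).

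Il10rb and Il17ra were the 2 with higher means in IL-6 KO tumor. Il10rb had normalized counts of 628, 479, 520 and 585 in WT and 704, 591, 670 and 752 in IL-6 KO, so that 3 IL-6 KO libraries lay above all WT libraries. Its log2 fold change was 0.30 (95% interval 0.038 to 0.56, limma adjusted p = 0.0989), and 0.36 (limma adjusted p = 0.0477) without IL-6 KO tumor 2. Il17ra, the receptor with the highest normalized count of the set, was at 8364, 7247, 6788 and 7210 in WT and at 8442, 8216, 8294 and 8062 in IL-6 KO. WT tumor 1 was inside the IL-6 KO range and the other 3 WT libraries were below it (log2 fold change 0.16, 95% interval 0.0031 to 0.32, limma adjusted p = 0.136). Without WT tumor 1 the log2 fold change of Il17ra was 0.22 (limma adjusted p = 0.0377), and scaled to the library sum it was -0.08, which is 0.17 above the median of all genes under that scaling (-0.25).

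The interferon receptor chains and Il10ra had smaller fold changes in tumor, none with an unadjusted p under 0.05. Ifnar1 was 4952 ± 199.8 (SD, n = 4) in WT and 4608 ± 258 in IL-6 KO tumor, with a log2 fold change of -0.10 (95% interval -0.25 to 0.039, limma adjusted p = 0.275). Ifnar2, Ifngr1, Ifngr2 and Il10ra had log2 fold changes between -0.16 and -0.04, with limma adjusted p from 0.423 to 0.803. For Ifnar2 the IL-6 KO libraries fell into 1813 and 1754 against 1270 and 1322, while WT ranged from 1503 to 1816.

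Neutrophil markers moved with genotype in the same tumor libraries. Of 11 neutrophil genes 9 rose in IL-6 KO tumor, against 10.6% of all genes higher, and their summed normalized count was 4580 to 5245 in WT and 7168 to 17702 in IL-6 KO libraries, lowest of these in IL-6 KO tumor 3. Of 8 monocyte and macrophage genes 3 rose, with sums of 1715 to 2198 in WT and 2224 to 2904 in IL-6 KO. In direction 5 of the 8 were higher and 3 lower, the latter being C1qa, Adgre1 and Cd68 (log2 fold changes -0.59, -0.30 and -0.15). The largest of the 8 by normalized count, Mrc1, stood at 1407 ± 72.3 (SD, n = 4) in WT and 1479 ± 199 in IL-6 KO. The sums of 2 other lists did not overlap between genotypes either. Those of T and NK cell genes were 1679 to 1999 in WT and 1203 to 1587 in IL-6 KO, with 1 of 6 tested genes passing as lower, against 9.16% of all genes. It was Cd247, named after its values were seen (log2 fold change -1.84, limma adjusted p = 0.0276). By direction alone 4 of the 6 were lower and 2 higher, Nkg7 among the latter (log2 fold change 2.01, limma adjusted p = 0.0794). The largest of them, Lck, stood at 1160 ± 139 (SD, n = 4) in WT and 805 ± 209 in IL-6 KO, and the next, Klrb1c, at 551 ± 88.8 and 560 ± 94.5. The other T and NK cell markers of the list, Cd3d, Cd3e, Cd3g, Cd8a, Ncr1 and Gzma, were not among the genes listed in tumor. The sums of B-lineage genes were 135282 to 139836 and 146926 to 153984, with 1 of 10 higher and 1 lower, against 10.6% and 9.16% of all genes. Their part in the receptor values was not tested, and in bulk RNA fewer cells of a type and less RNA per cell cannot be told apart.

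In stroma, the receptors were compared in the host's own marrow cells, and none passed the test, against 0.0082% (1 of 12202) of all genes. At an unadjusted p under 0.05 there were 2 of 10 receptors, Il2rg and Il4ra, against 9.15% of all genes. The genotypes did not overlap for 1 receptor, against 5.79% of all genes. Of the 10, 5 had higher and 5 lower means on the log2 scale, with a median log2 fold change of -0.01 in the receptors and -0.01 over all genes.

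Il2rg, the common gamma chain, separated the genotypes in stroma. The libraries held 41.8, 47.1, 73.1 and 44.1 in WT and 0, 20.4, 1.88 and 16.4 normalized counts in IL-6 KO. Every IL-6 KO library was below every WT library, and the lowest values were in IL-6 KO stroma 1 and 3, which also list the most genes at 0. The log2 fold change was -3.16 (95% interval -5.39 to -0.94), with a limma unadjusted p of 0.00903 and adjusted p of 0.432. An exact permutation test of this gene alone gave p = 0.0286 (two-sided, unadjusted), the smallest that 4 libraries against 4 allow. Groups without overlap always give this p, so it adds nothing to the separation above. The size rests on the low values, since it was -2.24 with a pseudocount of 5 and -2.32 without IL-6 KO stroma 1. Genes of T and NK cells, in which this chain is prominent, summed to 62.5 to 99.4 in WT and 13.3 to 343 in IL-6 KO stroma, with 9 of 12 of them not among the listed genes, and their part was not tested.

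Il4ra leaned the other way in stroma. It had normalized counts of 26.9, 113, 304 and 214 in WT and 265, 675, 352 and 381 in IL-6 KO. WT stroma 3 reached into the IL-6 KO range and the other 3 WT libraries lay below it. The log2 fold change was 1.72 (95% interval 0.32 to 3.11, limma adjusted p = 0.461), and it was 1.01 without WT stroma 1.

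The IFN-gamma receptor chains varied with the library as much as with genotype. Ifngr1, the ligand-binding chain, had 15.2, 60.8, 73.7 and 81.8 in WT and 217, 204, 29.2 and 352 in IL-6 KO, so that 3 IL-6 KO libraries were above all WT libraries and IL-6 KO stroma 3 was within the WT range (log2 fold change 1.57, 95% interval -0.11 to 3.24, limma adjusted p = 0.563). Ifngr2, the signaling chain, had 10.97, 66.9, 38.2 and 81.4 in WT and 44.7, 65.2, 0 and 251 in IL-6 KO. The mean of Ifngr2 was higher and its log2 mean lower in IL-6 KO (log2 fold change -0.45, 95% interval -3.41 to 2.52, limma adjusted p = 0.950), and leaving out IL-6 KO stroma 3, the library at 0, turned the log2 fold change to 1.18.

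Ifngr1, Ifngr2, Il10ra and Il17ra shared their low libraries in stroma, a grouping made after the values were seen. Within WT all 4 were lowest in WT stroma 1, and within IL-6 KO all 4 were lowest in IL-6 KO stroma 3. The summed neutrophil markers were lowest in the same libraries, at 7324 in WT stroma 1 (7324 to 13941 in WT) and 7799 in IL-6 KO stroma 3 (7799 to 32490 in IL-6 KO). The sums of T and NK cell genes, few of them listed, were lowest there as well, at 62.5 and 13.3. No other cell type list was lowest in both libraries. Both are also among the 3 libraries with the most genes at 0. The part of any of these in the receptor values was not tested.

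The other receptors had wide intervals in stroma that include 0. Il7r was at 51.5, 69.8, 35.9 and 51.9 in WT and at 21.1, 18.2, 6.66 and 87.5 in IL-6 KO, with 3 IL-6 KO libraries below and IL-6 KO stroma 4 above every WT library (log2 fold change -1.16, 95% interval -2.80 to 0.47, limma adjusted p = 0.658). Ifnar1 was at 259 to 388 in WT and 149.8 to 377 in IL-6 KO (log2 fold change -0.30, 95% interval -1.10 to 0.50, limma adjusted p = 0.832). Ifnar2 reached 891 in WT stroma 4 and ranged from 79.3 to 403 in IL-6 KO (log2 fold change -0.78, limma adjusted p = 0.695). Il10ra, Il10rb and Il17ra had log2 fold changes of 0.55, 0.28 and 0.27 (limma adjusted p from 0.767 to 0.913). Single libraries moved several of these values. With 1 library left out, the log2 fold change of Il7r ran from -1.81 (without IL-6 KO stroma 4) to -0.63 (without IL-6 KO stroma 3), that of Ifnar1 from -0.49 (without IL-6 KO stroma 3) to -0.05 (without IL-6 KO stroma 1) and that of Il10ra from 0.20 (without WT stroma 1) to 0.87 (without IL-6 KO stroma 3). For Ifnar2 it was -0.35 without WT stroma 4 and -0.32 without IL-6 KO stroma 1. The higher means of Il10rb and Il17ra rested on IL-6 KO stroma 4 (218 and 2155), without which their log2 fold changes were -0.16 and -0.0068.

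**Figure D2:**
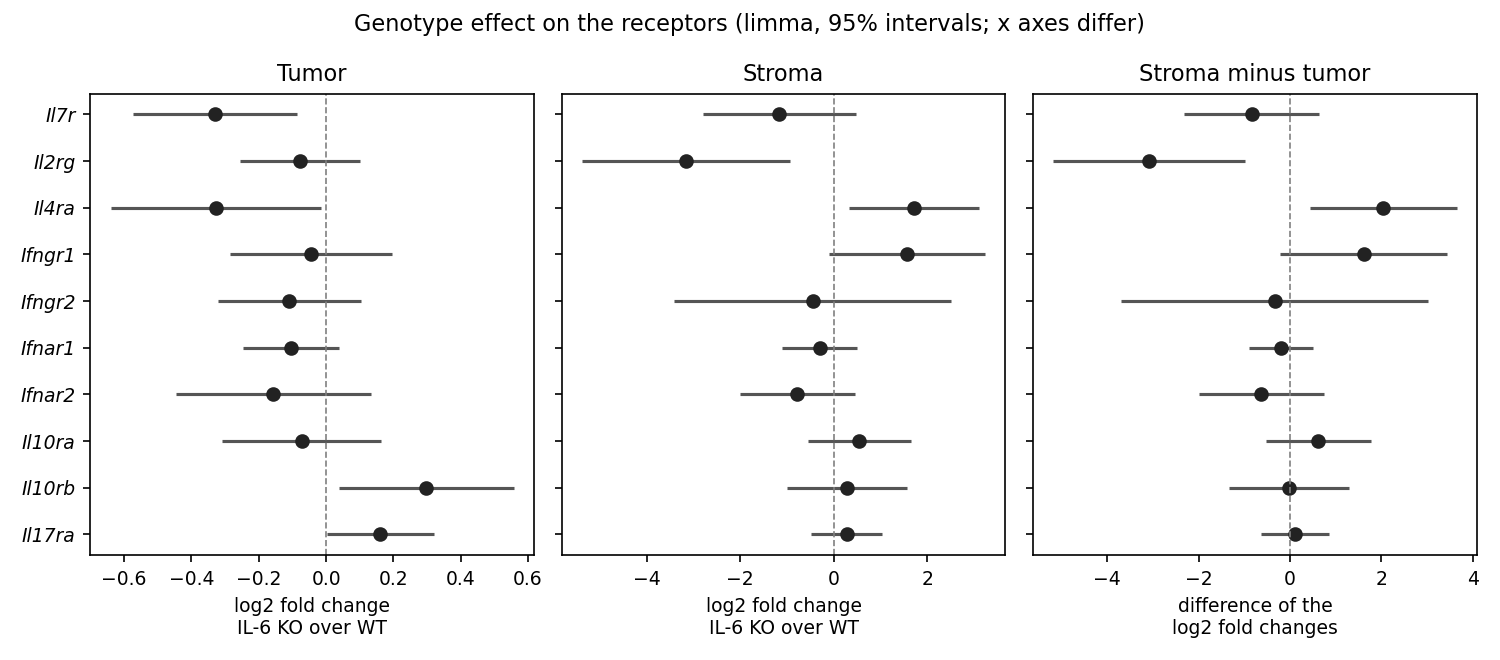
Log2 fold change of IL-6 KO over WT for each receptor in tumor (left) and in stroma (middle), and the difference of the 2 (right), with points for the limma estimate and bars for its 95% interval. The x axes differ in range. No receptor passed an adjusted p of 0.05 in any panel, and the stroma intervals are the wider ones, with standard errors of 0.35 to 1.37 beside 0.064 to 0.14 in tumor.

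Whether genotype moved a receptor differently in stroma and tumor was tested directly. No receptor passed (limma interaction over all 16 libraries), against 0.0276% of the 10887 genes tested in both tables, and 2 of 10 had an unadjusted p under 0.05, against 11.1% of all genes. For Il2rg the stroma minus tumor difference was -3.08 (95% interval -5.18 to -0.99, limma adjusted p = 0.281), and for Il4ra it was 2.04 (95% interval 0.44 to 3.65, limma adjusted p = 0.341). The fit took 1 spread per gene over both tables, although the stroma libraries varied more. The standard error of Il2rg was 0.99 here and 1.03 in stroma alone, so these intervals may be too narrow and these p-values too small. The labels do not say whether a tumor and a stroma library of one number came from the same mouse, and the fit took all 16 as independent. Their deviations from the group means correlated at -0.0626 to 0.108 over genes in the 8 same-numbered pairs. The adjusted p of the other receptors ran from 0.516 for Ifngr1 to 0.998 for Il10rb in the same limma fit.

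Since these chains act in pairs, the log2 ratio of the paired chains was taken within each library, over 10 tests that were added after the values were seen. Il4ra over Il2rg in stroma was -0.62, 1.24, 2.04 and 2.25 in WT and 8.05, 4.98, 6.94 and 4.45 in IL-6 KO. Il2rg was at 0 in IL-6 KO stroma 1 and at 1.88 in IL-6 KO stroma 3, so the ratios of 8.05 and 6.94 depend on the pseudocount of 1, and the separation includes the one already given for Il2rg. The groups did not overlap, with means of 1.23 ± 1.31 and 6.11 ± 1.68 (SD, n = 4), and a two-sided exact permutation test gave p = 0.0286, adjusted to 0.229 over the 10 tests. In tumor the same ratio was -1.30 ± 0.27 in WT and -1.55 ± 0.14 in IL-6 KO (exact permutation test, p = 0.171, adjusted p = 0.286). Il10ra over Il10rb in tumor was 1.19 ± 0.15 in WT and 0.82 ± 0.25 in IL-6 KO (exact permutation test, p = 0.0857, adjusted p = 0.229). No ratio passed the adjusted threshold, but 0.0286 is the smallest p that this permutation test can give. A single separated ratio therefore could not pass over 10 tests, and the lack of a pass decides nothing. The gap of Ifnar1 over Ifnar2 in tumor was small, at 1.55 ± 0.14 in WT and 1.60 ± 0.27 in IL-6 KO.

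**Figure D3:**
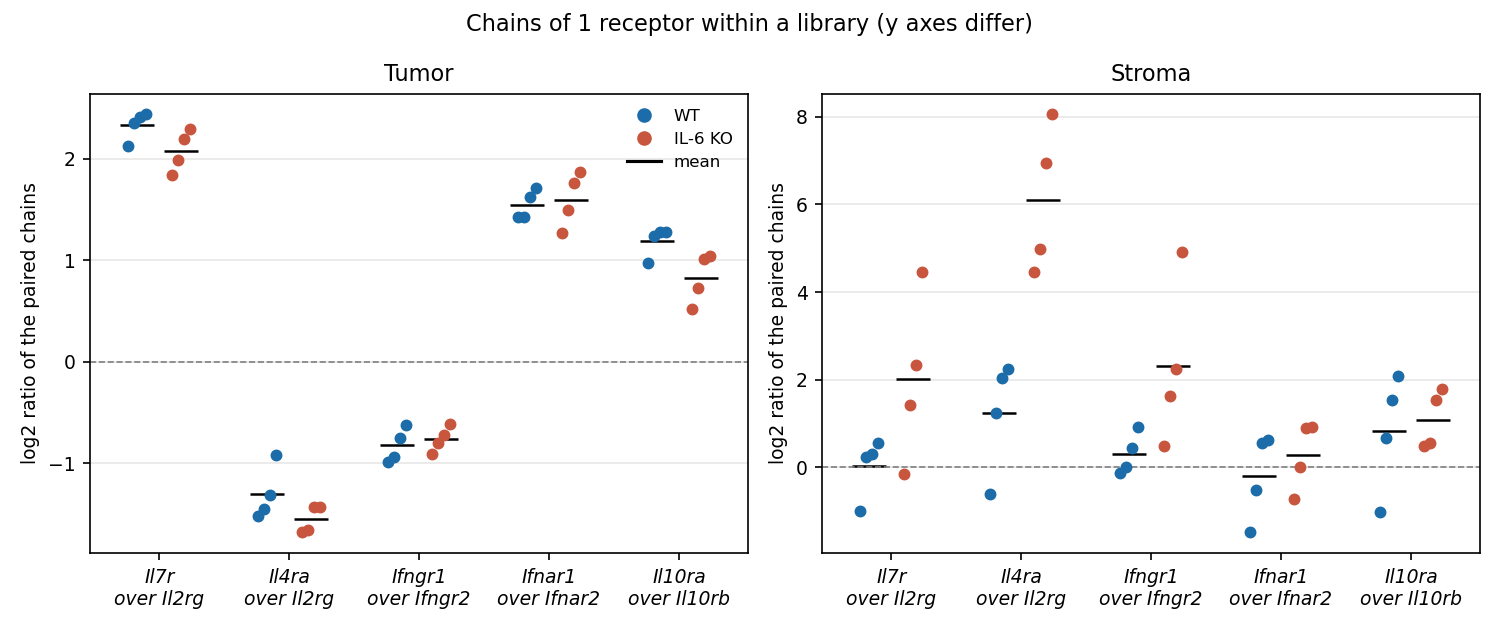
Log2 ratio of normalized count + 1 between the paired chains of a receptor in each library, tumor left and stroma right, with y axes of different range. Points are libraries (4 per group, WT blue, IL-6 KO red) and lines are means. The ratio of Il4ra over Il2rg in stroma runs from -0.62 to 2.25 in WT and from 4.45 to 8.05 in IL-6 KO, with no overlap, and the tumor ratios overlap for every pair.

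Around the receptors, genes of the same pathways did pass the test in tumor. Of the 17 Jak kinases, STAT factors and adaptors reported here, 3 rose, beside 10.6% of all genes higher and 9.16% lower. Tyk2, the kinase bound to Ifnar1 and Il10rb, rose by 0.30 on the log2 scale (limma adjusted p = 0.0215), Stat5a by 0.60 (limma adjusted p = 0.0343) and Stat5b by 0.24 (limma adjusted p = 0.0388), the latter both being STATs used by the IL-7 receptor. These calls depended on the processing, and Tyk2 and Stat5a passed under 12 and Stat5b under 10 of 20 alternatives. With the trend of GC content and length removed Tyk2 was at 0.13 (limma adjusted p = 0.378) and Stat5a at 0.42 (limma adjusted p = 0.0962).

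Of 28 tested target genes of interferons and these cytokines 5 rose and 4 fell, against 10.6% of all genes higher and 9.16% lower, with a median log2 fold change of -0.23 beside -0.0059 over all genes. B2m, the light chain of MHC class I, fell from 9389 ± 795 to 6818 ± 562 (SD, n = 4, log2 fold change -0.46, limma adjusted p = 0.00601), and Irf7, the interferon-induced regulator of type I interferon genes, from 161 ± 39.1 to 83.0 ± 5.84 (log2 fold change -0.92, limma adjusted p = 0.0128). Lcn2, an iron carrier that IL-17 induces and that neutrophils also make, rose from 257 ± 49.2 to 1082 ± 371 (log2 fold change 2.01, limma adjusted p = 0.00213), in libraries whose neutrophil markers rose as well. Irf8, a lymphoid and myeloid transcription factor, rose by 0.38, Socs2, a STAT5 target, by 0.44 and Psmb8, an immunoproteasome subunit, by 0.29 on the log2 scale. With the trend of GC content and length removed, B2m was at -0.17 (limma adjusted p = 0.114), Irf8 at 0.19 (limma adjusted p = 0.142) and Psmb8 at 0.13 (limma adjusted p = 0.171), so that these 3 no longer passed.

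Of 19 genes of feedback and receptor turnover 3 rose and 1 fell, with a median log2 fold change of 0.02, against the same shares of all genes. Ptpn11, the phosphatase SHP2, rose by 0.38 (limma adjusted p = 0.00785), Socs2 as above and Ptpn1 by 0.29 on the log2 scale, and Usp18, which restrains signaling at Ifnar2, fell from 216 ± 73.2 to 118 ± 12.8 (SD, n = 4, log2 fold change -0.81, limma adjusted p = 0.0343). Of 17 partner chains of the receptors 11 were tested, with a median log2 fold change of 0.28 beside -0.0059 over all genes. Il21r (0.28, limma adjusted p = 0.0311) and Ifnlr1 (1.13, limma adjusted p = 0.0350), the partners of Il2rg and of Il10rb, rose on the log2 scale. Il17rd (-0.73, limma adjusted p = 0.0179) and Il13ra1 (-1.06, limma adjusted p = 0.0475), the partner of Il4ra, fell. These 2 higher and 2 lower of 11 stand against 10.6% and 9.16% of all genes. Ifnlr1 (15.3 in WT, 34.9 in IL-6 KO) and Il13ra1 (32.7 and 15.3) had low normalized counts, and passed under 11 and 8 of 19 alternatives. Among 20 alternatives, Ptpn11 passed under 19, Socs2 and Il17rd under 17, Ptpn1 under 11, and Usp18 and Il21r under 10. With the trend of GC content and length removed Il21r was at 0.12 (limma adjusted p = 0.387) and Ptpn1 at 0.13 (limma adjusted p = 0.266). Of 30 ligands, Il7 was the 1 tested in tumor, at 11.1 ± 6.78 in WT and 11.4 ± 2.78 in IL-6 KO (limma adjusted p = 0.777). Irf7 and Lcn2 passed the test under all 20 alternatives, whereas scaling to the library sum left 1 of the 12 higher and all 7 lower genes past it and removing the trend of GC content and length left 5 and 4. No alternative turned the direction of any of these 19 genes.

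In stroma, none of these pathway genes passed the test (limma, 0 of 6 partner chains, 17 kinases, STATs and adaptors, 17 feedback genes, 27 targets and 1 ligand), against 0.0082% of all genes. At an unadjusted p under 0.05 there were 0, 2, 2, 3 and 0 of them in that order, against 9.15% of all genes.

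**Figure D4:**
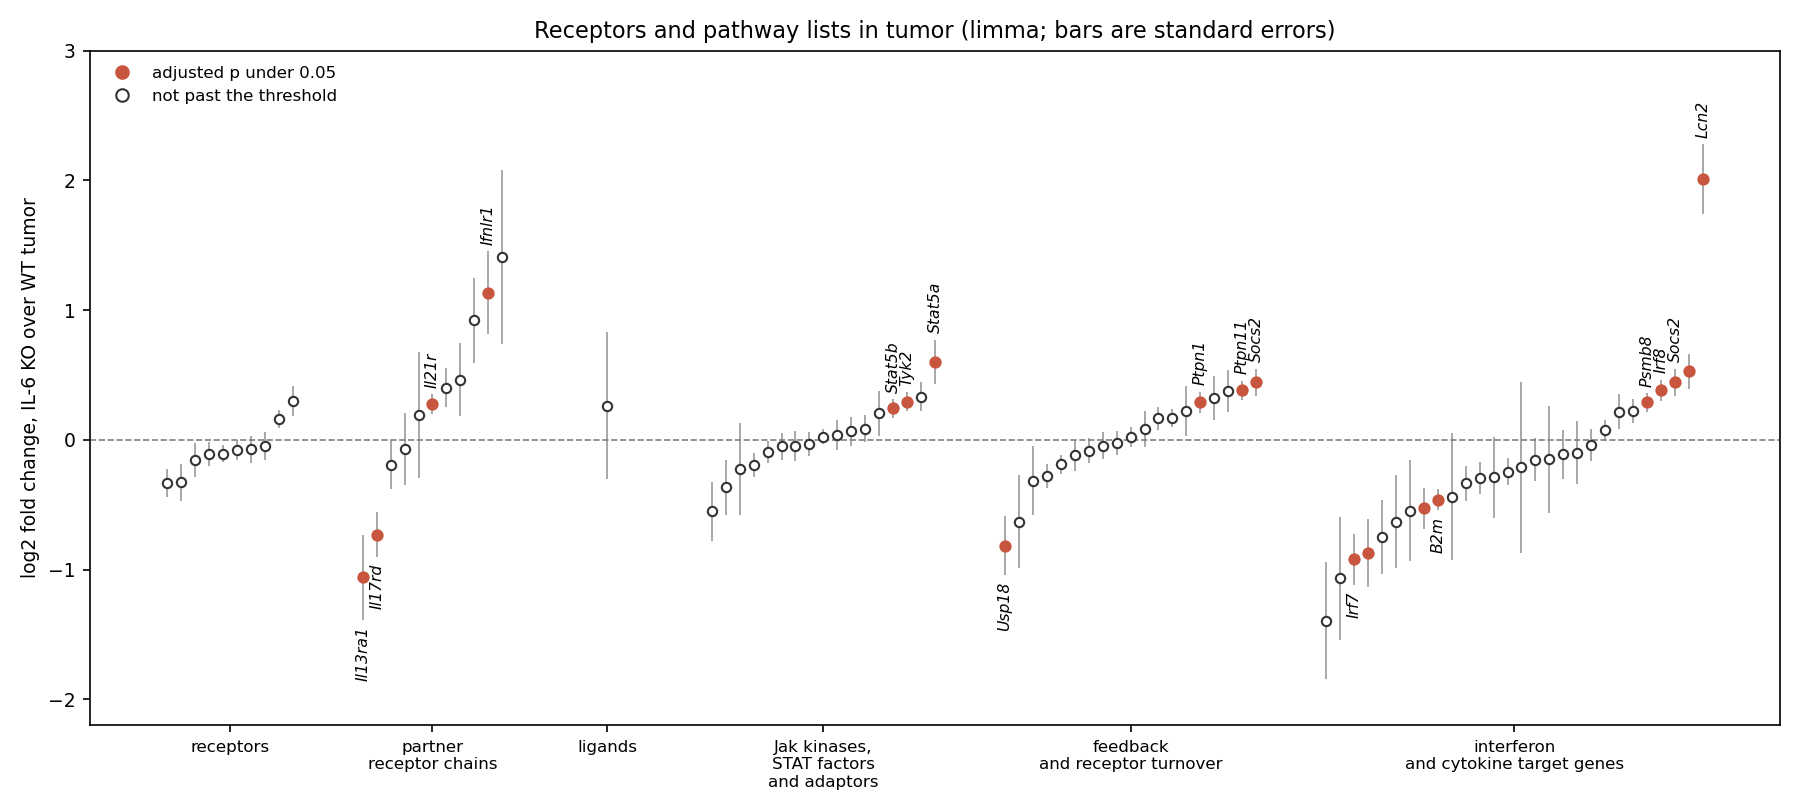
Log2 fold change of IL-6 KO over WT tumor for the 10 receptors and for the genes of 5 pathway lists, ordered by value within a list. Bars are standard errors, filled points have a limma adjusted p under 0.05, and up to 6 of them per list, those with the smallest p, are named. The receptors lie between -0.33 and 0.30 with no filled point, while Lcn2 reaches 2.01 and Irf7 -0.92.

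The genes whose values ran closest to the receptor with the highest level per kilobase of median transcript, averaged over the genotypes, were found over the 8 libraries of each table, by Pearson's r on log2(normalized count + 1). By the other lengths the leading receptor was Il7r in tumor, and in stroma Il4ra was behind Ifnar2, Il17ra and Ifnar1. It was also behind Il10ra with merged exons and behind Ifngr1 with the longest transcript. The closest genes to Ifnar1 in tumor were Rab6b (0.990), AC102496.1 (0.976) and Hcst (0.975), and those to Il4ra in stroma were Nmrk1 (0.968), Apobr (0.967) and Ano8 (0.964). The libraries of a table share its scaling, and these are descriptions chosen as the closest of all genes tested.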

How the data were processed

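Single-end reads were aligned by the authors to mm10, quantified with salmon 1.3.0 correcting for sequence and GC bias, and normalized with DESeq2 1.28.1. The authors deposited a table of normalized counts for tumor and another for stroma, a scaled signal rather than whole reads, so the depth of each library is unknown and count tests were not run. The deposited tables of the authors' own comparisons (log2 fold changes, p-values) were not used.

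All 16 samples were grouped by their labels. Log2(normalized count + 1) was tested with limma 3.58.1 (trended variance, genotype as the only term, genes with a mean over 10, two-sided, Benjamini-Hochberg adjustment over all genes, threshold 0.05), in a separate fit per table and, for the interaction, over genes in both. Single genes used exact permutation of 8 libraries. Positions and lengths came from GENCODE vM21 on GRCm38 (15069 of 15080 tumor and 13338 of 13344 stroma identifiers found), copies from BLAST 2.17.0 (at least 97% identity over 150 nucleotides) and promoters from RefSeq. The fit was tested on simulated data.

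The receptors and lists were chosen with earlier results of these data known. The text names all receptors, up to 6 genes per pathway list with the smallest adjusted p past the threshold, cell type genes not listed, and the 3 genes closest to the receptor with the highest level per kilobase in each table. Alternatives were other pseudocounts, filters and scalings, array weights, robust variances, removal of the trend with GC content and length, a replicate block, each library left out and other transcript lengths. The chain ratios and the promoter search were added after the values were seen. A planned search for motifs in the receptor proteins was not run. Results for 1 gene of the pathway lists are not reported here.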

Additional observations from a re-analysis of the deposited data

Results flagged for a closer look

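Of the 40 groups of 4 libraries (10 receptors, 4 groups), 2 held a library far from the others by Dixon's test at the 95% level, and chance gives about 1 in 20. For Il2rg the highest WT stroma value, 73.1 in WT stroma 3, stood apart from the next, 47.1. For Il10ra the lowest WT stroma value, 60.9 in WT stroma 1, stood apart from the next, 156, with a Dixon ratio of 0.879.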

How the results depend on the processing

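No receptor passed the threshold in stroma or in the interaction under any alternative. In tumor, where none passed as reported, 1 did after quantile normalization (Il7r), 3 with array weights (Il7r, Il4ra, Il10rb) and 5 when libraries were scaled to their sum without Rn7s1 and CT010467.1 (Il7r, Il4ra, Ifngr2, Ifnar1, Ifnar2). That scaling moved the median of all genes to -0.25 in tumor and -0.28 in stroma, and the tumor calls from 1542 higher and 1328 lower to 277 and 2979, so the log2 fold change of -0.57 for Il7r there lay 0.32 below that median. Removing the trend with GC content and length gave 1590 higher and 663 lower. With the replicate number as a block 1 receptor passed (Il7r, limma adjusted p = 0.0453), and none with the block and the GC correction. Deviations of same-numbered libraries correlated at -0.0186 to -0.000283 in tumor and -0.0293 to 0.126 in stroma, so the numbers were not taken to pair the samples. Leaving out 1 tumor library gave 0 to 1 receptors, with Il17ra called without WT tumor 1, Il10rb without IL-6 KO tumor 2 and Il7r without IL-6 KO tumor 3. The cause of these changes was not tested.

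None of the receptors that turned in sign had passed the test. Ifngr1 in tumor was 0.0029 with array weights and 0.042 after the GC correction, with or without the block, Il17ra in tumor -0.081 with sum scaling, Ifngr2 in stroma 0.015 and its interaction 0.12 with a pseudocount of 5, and the interaction of Il10rb 0.25 with array weights. With a library left out, the log2 fold changes ran from -0.11 to 0.053 for Ifngr1 and -0.13 to 0.011 for Il10ra in tumor, and in stroma from -1.48 to 1.18 for Ifngr2, -0.16 to 0.57 for Il10rb and -0.0068 to 0.52 for Il17ra. The interactions ran from -0.39 to 0.052 for Ifnar1, -1.37 to 1.29 for Ifngr2, -0.46 to 0.27 for Il10rb and -0.17 to 0.36 for Il17ra. Normalized counts give no depth, so counting error behind low stroma values is unknown.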
